A study of Mus musculus with 21 samples.

Results

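Gene expression was compared between the cells with the brightest Lgr5GFP signal (high) and the cells without it (negative), both sorted by flow cytometry from the stomach corpus of control mice. The comparison used 3 high and 3 negative arrays, 6 of the 21 microarrays of the study, chosen by the population and treatment given in the titles. The control mice were uninjected and no vehicle group was used. The other arrays hold 3 control samples of intermediate brightness (low) and 4 samples each of high, low and negative cells from mice injected with 0.27 mg tamoxifen per g of weight 24 hours before isolation. Each array number stands for 1 sorting run, and the high, low and negative arrays of a number come from the same run. The design text calls these replicates technical, so p-values measure only the spread between these sorted samples. Strain, age, the number of mice and the construct behind the reporter were not given in the sources used here. In 1 label field the 3 negative arrays are called low, whereas their titles and their cell population field say negative. They are treated as negative here.

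Lgr5 encodes a receptor for R-spondins, secreted proteins that strengthen Wnt signalling, and marks stem cells in several epithelia of the gut. In the mouse corpus, Lgr5 has been linked to chief cells at the gland base, which store and secrete pepsinogen and can return to the cell cycle after injury. The other cells of a corpus gland are mucus-making pit cells at the surface, proliferating cells of the isthmus, mucous neck cells, acid-secreting parietal cells, hormone-secreting endocrine cells and tuft cells, which are chemosensory.

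All levels are log2 signal, all differences are high minus negative on that scale, and ± is the standard error (SE) of a difference from limma's linear model, fitted to the 21 arrays and 22180 genes. Genes were called at an adjusted p under 0.05, by the Benjamini-Hochberg method over all genes. As a guide to background, 95 percent of 1105 olfactory receptor genes had a mean level at or under 4.16. Where the dimmer group averaged at or under that level, the fold is given as a lower bound. Lgr5 checks the labels and is no finding, since it drove the sort. Its level was 8.40, 8.80 and 9.15 in the high arrays, against 4.06, 4.34 and 4.82 in the negative arrays, and it averaged 7.56 in low cells. Pearson correlations between arrays of a group were 0.967 to 0.983 for high and 0.987 to 0.991 for negative cells, and 0.915 to 0.955 between the groups.

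The tests called 1030 genes higher in high cells (4.64% of genes tested) and 1698 lower (7.66%). These shares are the reference for the counts of called members in each gene list below. Levels of the 3 high and 3 negative arrays did not overlap for 1023 of the genes called higher and 1692 of those called lower, against 33.4% of all genes. At least 8-fold differences were found for 79 of the genes called higher and 84 of those called lower. The median difference over all genes was 0.04. The number of genes called lower fell to 1116 without high array 1 and to 1122 without negative array 3, while the number called higher ran from 706 to 961 when any 1 array was left out. Unless stated, a gene described as called kept its call without any 1 of the 6 arrays. In sorted bulk samples, fewer cells of a type and less RNA per cell cannot be told apart.

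**Figure D1:**
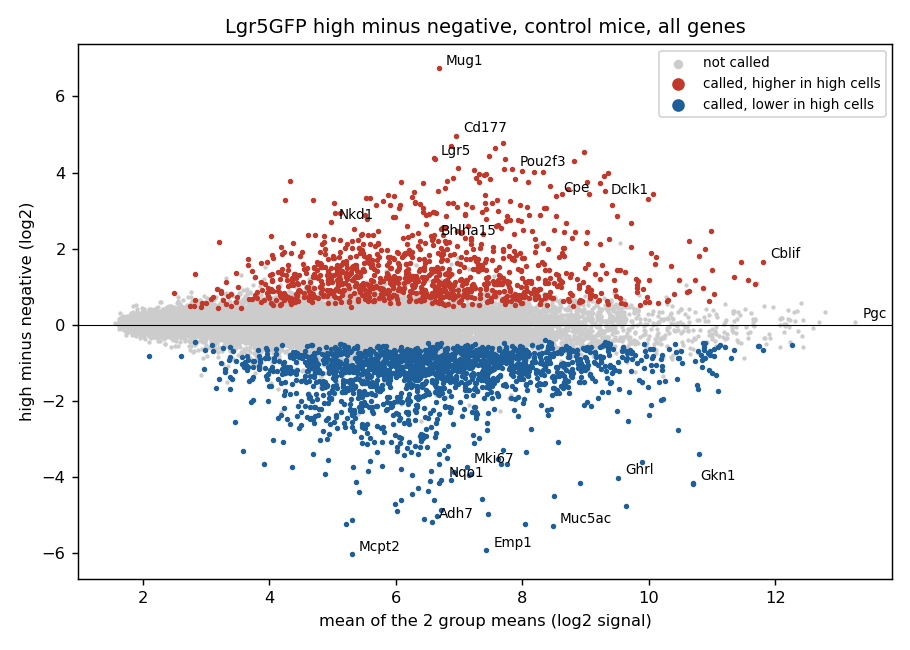
High minus negative difference (log2, vertical axis) against the mean of the 2 group means (log2 signal, horizontal axis) for 22180 genes in control mice. Red points are the 1030 genes called higher and blue points the 1698 called lower in high cells, and grey points were not called. Mug1 (6.74) lies at the top and Mcpt2 (-6.03) near the bottom, both with the dimmer group under the background guide, while Pgc lies near 0 at the bright end.

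The largest difference upward among the named genes was that of Mug1, which encodes murinoglobulin, a broad inhibitor of proteases. Mug1 was at 10.10, 10.06 and 9.99 in high cells, against 3.82, 3.42 and 2.69 in negative cells. The 3 high arrays were nearly equal and the negative arrays lay under the background guide. Its difference was 6.74 ± 0.52, at least 59.4-fold (limma, adjusted p = 8e-08). Low cells, at a mean of 9.59, lay close to high cells for this gene, and high minus low was not called (0.46 ± 0.52, adjusted p = 0.916).

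Most other genes at the top of the ranking had intermediate levels in low cells. Spib, an ETS family transcription factor, was 25.3-fold higher, with 10.70, 9.76 and 9.22 in high and 5.85, 3.78 and 6.07 in negative cells. Cdhr5 and Cdhr2, cadherins that link the tips of microvilli, were 27.5-fold and 17.1-fold higher. Vav1, a signalling protein best known from blood cells, was 21.7-fold higher, and Sh2d7, a protein with an SH2 domain, 23.4-fold. Cd177, a surface glycoprotein best known from neutrophils, varied among the high arrays (11.23, 8.94 and 8.15, against 4.04, 4.32 and 5.06 in negative cells). The difference was 4.96 ± 0.68, and genes of this ranking were named only where the groups did not overlap. Cpvl, a carboxypeptidase, and Strip2, of a family of phosphatase complex scaffolds, were 20.6-fold and 20.4-fold higher.

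Tuft cell markers were higher in high cells as a group. Of 14 measured members 11 were called higher, with a median difference of 3.29. The groups did not overlap for any of the 14, against 33.4% of all genes. Among these 14 Sucnr1 alone was lower in high cells, and it lay under the background guide in both groups. At an unadjusted p under 0.05, limma gave 13 higher and none lower. With the sorting run as a replicate block, 13 were called higher in the fit of 21 arrays and 13 in that of 6 arrays. Without both arrays of run 1, or of run 2, the number was 10. The mean of the list was 9.01 to 9.66 in the high arrays, against 5.99 to 6.86 in the negative arrays. Pou2f3, the transcription factor that tuft cells require in mice, was at 10.34, 9.89 and 9.43 in high cells and at 6.20, 4.69 and 6.49 in negative cells, a difference of 4.09 ± 0.62 (limma, adjusted p = 0.000144). Dclk1, a kinase widely used as a tuft cell marker, was at 11.63, 11.18 and 10.91 in high cells, against 7.46, 6.57 and 7.96 in negative cells, 15.0-fold higher. In both genes negative array 2 was the lowest of the 6 arrays, and negative levels were still above the background guide. The tuft cell markers called higher differed in the same direction as the genes at the top of the ranking, and their part in those differences was not tested.

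Other tuft cell genes covered the cells' known sensing and signalling. Trpm5, the cation channel of taste transduction, was 13.5-fold higher, with 11.38, 10.87 and 10.45 in high and 7.26, 6.72 and 7.45 in negative cells. Avil, an actin-binding protein of the villin family, was 10.9-fold higher, and Plcg2, a phospholipase C, 9.72-fold. Gfi1b, a transcriptional repressor, was 9.23-fold higher, Sh2d6 10.9-fold and Rgs13, a regulator of G protein signalling, 7.31-fold. Il25, the cytokine by which tuft cells activate type 2 immunity, was 3.45-fold higher. The taste G protein gene Gnat3 (2.14 ± 0.72, limma, adjusted p = 0.058) and Chat, for the acetylcholine-making enzyme (1.15 ± 0.40, adjusted p = 0.0671), missed the threshold in the main fit. Sucnr1, a receptor for succinate, lay near background in both groups (means 2.46 and 2.76).

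The tuft cell list also holds Alox5ap and Ltc4s, which serve the making of leukotrienes from arachidonic acid. Alox5ap, the protein that presents arachidonic acid to 5-lipoxygenase, was 9.85-fold higher and Ltc4s, the leukotriene C4 synthase, 12.5-fold. Alox5, the lipoxygenase itself, and Hpgds, a prostaglandin D synthase, were picked after their values were seen. Alox5 was at 11.94, 11.24 and 10.88 in high cells, against 7.83, 6.48 and 7.79 in negative cells, a difference of 3.98 ± 0.69, and Hpgds differed by 3.94 ± 0.57. All 4 were higher in every high array than in any negative array, as were 1023 of the 1030 genes called higher.

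Ptprc, which encodes the leukocyte phosphatase CD45, was 17.5-fold higher, at 9.80, 9.10 and 8.25 in high and 5.34, 4.18 and 5.24 in negative cells. It was the only member of the immune list called higher among 19 measured. The T cell gene Cd3e averaged 3.54 in high and 3.28 in negative cells, and the B cell genes Cd79a (3.49 and 3.22) and Ms4a1 (2.65 and 2.43) were likewise under the background guide in both groups. The mean of the whole immune list was 4.15 to 4.36 in high and 4.25 to 4.58 in negative arrays. Lyz2, Tyrobp and H2-Ab1, genes of myeloid and antigen-presenting cells, were called lower by -2.46 ± 0.67, -1.45 ± 0.44 and -1.82 ± 0.59. None of these 3 calls held without high array 1, negative array 1 or negative array 3. Kit, a receptor for stem cell factor that mast cells need, was 6.61-fold higher in high cells, whereas mast cell proteases were lower. Siglecf, a sialic acid receptor named after its value was seen, differed by 3.76 ± 0.69.

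Several mast cell protease genes were called lower in high cells. Mcpt2, a chymase of mucosal mast cells, was at 2.41, 2.59 and 1.87 in high cells, against 8.50, 8.87 and 7.58 in negative cells, at least 17.9-fold lower (-6.03 ± 0.43, limma, adjusted p = 3.08e-08). Mcpt1 was at least 13.0-fold lower, with 2.84, 2.95 and 2.44 in high cells and 8.69, 8.67 and 6.22 in negative cells. Of the 10 measured members of the mast cell list, 5 were lower (with Cpa3, Tpsb2 and Cma1) and Kit was higher. Ms4a2 and Fcer1a, subunits of the IgE receptor, averaged 3.96 and 2.57 in high and 3.45 and 3.02 in negative cells, all under the background guide. Low cells lay with high cells for these proteases, at a mean of 2.93 for Mcpt2.

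**Figure D2:**
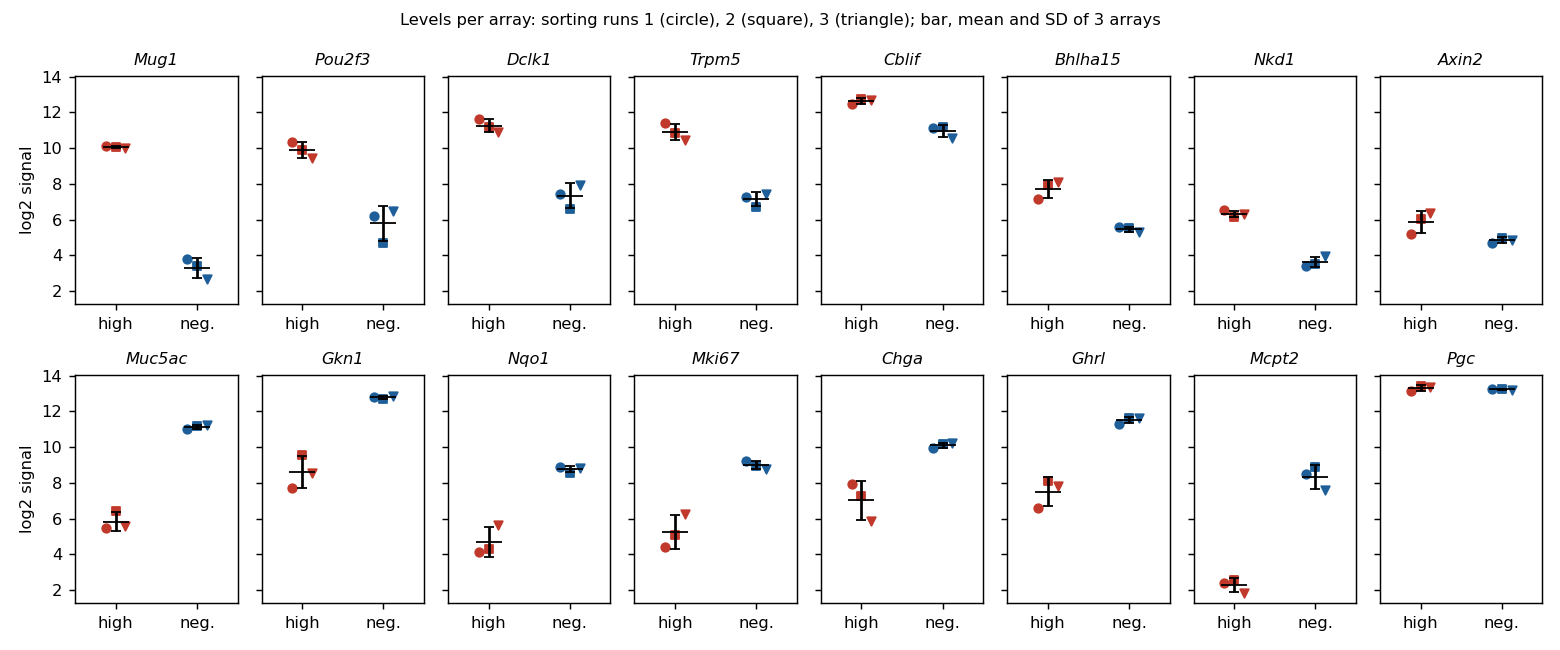
Levels of 16 genes (log2 signal, vertical axis) in the 3 high (red, left) and 3 negative (blue, right) arrays of control mice, with mean and SD. Circles, squares and triangles are sorting runs 1, 2 and 3. Mug1, Pou2f3, Dclk1 and Trpm5 are higher in every high array, Muc5ac, Gkn1, Nqo1, Mki67 and Mcpt2 are lower, and the groups overlap for Pgc.

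Chief cell genes were split. Pgc, which encodes pepsinogen C, was at 13.14, 13.43 and 13.35 in high cells and at 13.25, 13.24 and 13.19 in negative cells, near the highest value of the table (13.55), where the array can show little change. Of 15 measured chief cell markers, 5 were called higher and 1 lower, with a median of 0.66, which ran from 0.24 to 0.96 when any 1 array was left out. Bhlha15, the transcription factor also called Mist1 that sets up the secretory apparatus, was at 7.16, 7.92 and 8.12 in high cells, against 5.57, 5.51 and 5.29 in negative cells (2.28 ± 0.39, limma, adjusted p = 0.00039). Cblif, gastric intrinsic factor, was at 12.47, 12.76 and 12.69 in high and 11.14, 11.20 and 10.59 in negative cells, 3.17-fold higher. The chitinase Chia1 and the secreted protein Nucb2 were 3.13-fold and 3.71-fold higher. In these 4 genes every high array lay above every negative array, as in 1023 of the 1030 genes called higher.

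The remaining chief cell calls were less stable. Pga5, another pepsinogen, was at 7.32, 9.64 and 10.81 in high cells, against 11.15, 11.43 and 10.99 in negative cells. High array 1 was far below the other 2, and the call (-1.93 ± 0.60, adjusted p = 0.0387) was lost with the replicate block in the 6 arrays and in 5 of the 6 fits that left out 1 array. It was kept without high array 3. Copz2, a coat protein of transport vesicles, was called higher (1.06 ± 0.35), but not with the sorting run as a replicate block of all 21 arrays (adjusted p = 0.0545), and the call was also lost without any 1 array other than high array 1. Clps, for colipase, differed by -0.07 ± 0.17. The mean of the chief cell list was 8.07 to 8.85 in high arrays, against 7.84 to 8.02 in negative arrays. In low arrays it was 9.08 to 9.32.

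Secretory machinery of the endoplasmic reticulum showed a partial difference, with 6 of 26 members called higher and 1 lower. Pdia5 (lower) and Atf6 (higher) lost their calls in 3 and 2 of the 6 fits that left out 1 array. Ero1b, an oxidase for disulphide bonds found mainly in secretory cells, was at 10.10, 10.10 and 9.72 in high cells, against 7.23, 7.06 and 7.01 in negative cells, 7.33-fold higher. Derl3, of the degradation pathway for misfolded proteins, was 3.61-fold higher and the cochaperone Dnajb9 2.27-fold. Of 24 genes for secretory vesicles and exocytosis, 6 were higher and 3 lower. Rab3a (higher) and Vamp3 (lower) each lost the call in 1 of the 6 fits that left out 1 array. Cpe, a carboxypeptidase that processes prohormones, was 10.5-fold higher, at 10.83, 10.40 and 9.47 in high and 6.73, 6.59 and 7.20 in negative cells. Sytl2, which binds Rab27 and tethers granules, was at least 18.5-fold lower, at 3.75, 3.70 and 3.90 in high and 8.40, 8.45 and 8.26 in negative cells, whereas Rab27a was 3.03-fold higher.

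Of 22 receptors for secretagogues and hormones, 3 were higher and 1 lower, against 4.64% and 7.66% of all genes. Adcyap1r1, among those called higher, lost its call in 5 of the 6 fits that left out 1 array. Cckar, the receptor for cholecystokinin, was at 10.52, 10.95 and 10.78 in high cells, against 8.95, 8.63 and 8.54 in negative cells, 4.13-fold higher. The orphan receptor Gprc5c was 4.87-fold higher. Glp1r, the receptor for glucagon-like peptide 1, was 6.76-fold lower, with 5.78, 6.20 and 6.21 in high cells and 8.70, 8.72 and 9.03 in negative cells.

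Wnt target and stem cell genes were higher in part. Of 27 measured, 10 were higher, Lgr5 among them, and 3 were lower, with a median of 0.47. Nkd1, a feedback inhibitor of Wnt signalling, was at 6.51, 6.16 and 6.30 in high cells, against 3.39, 3.54 and 3.96 in negative cells, at least 4.49-fold higher. Smoc2, a matricellular protein of Lgr5-positive intestinal stem cells, was at 6.08, 6.66 and 7.16 in high and 4.34, 4.04 and 4.45 in negative cells, 5.12-fold higher. Both showed no overlap between the groups, as did 1023 of the 1030 genes called higher.

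Among the transcription factors of this list, Sox9 was 3.00-fold higher, Runx1 2.20-fold higher and Ascl2, which drives the intestinal stem cell state in mice, at least 2.45-fold higher. Axin2, a negative feedback target of Wnt, was at 5.19, 6.05 and 6.35 in high cells, against 4.68, 4.99 and 4.89 in negative cells (1.01 ± 0.24, adjusted p = 0.00675). Tnfrsf19 (Troy) and Rnf43 were called higher by 1.30 ± 0.35 and 0.74 ± 0.24, and these calls were lost in 4 and 5 of the 6 fits that left out 1 array, with Rnf43 called only without high array 1 and Tnfrsf19 only without high or negative array 3. Cd44, at 6.97, 6.40 and 7.97 in high cells and 5.49, 5.30 and 5.79 in negative cells, did not pass (1.58 ± 0.70, adjusted p = 0.176). Olfm4, a stem cell marker of the intestine, averaged 3.80 in high and 3.64 in negative cells, under the background guide.

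Myc, a Wnt target that promotes growth, went the other way. It was at 4.68, 5.11 and 5.34 in high cells, against 7.55, 7.14 and 7.32 in negative cells, 4.90-fold lower (limma, adjusted p = 7.79e-05). Ccnd1 and Cdca7 were also called lower (-1.55 ± 0.48 and -1.48 ± 0.47), but high array 3 was the only array that could be left out without losing these 2 calls. Of 28 Wnt ligands and receptors, Wnt5a was higher (1.15 ± 0.29, not called without high array 1) and no other was called.

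Genes of other niche signals differed in part of their members, in both directions. Among 23 genes of the BMP and activin pathway, which restrains stem cells in the gut, 3 were higher and 5 lower. Smad6 (lower) and Bmp2 (higher) lost their calls in 5 and 2 of the 6 fits that left out 1 array. Id1, a direct BMP target, was at 5.80, 5.88 and 6.48 in high cells, against 8.23, 8.41 and 8.42 in negative cells, 4.92-fold lower, and Id2 and Id3 were 2.29-fold and 3.53-fold lower. Sostdc1, a secreted antagonist of BMP and Wnt, was 7.42-fold higher, with 8.004, 9.12 and 8.52 in high and 5.91, 5.84 and 5.21 in negative cells. Of 22 genes for EGFR ligands, receptors and feedback, Egf was at least 3.35-fold higher and 5 were lower, or 3 when high array 2 was left out. Erbb2 was 3.12-fold lower and Lrig3, of the LRIG membrane proteins, 2.94-fold lower. Of 17 Notch pathway genes 2 were higher and 1 lower. Lfng, a glycosyltransferase that modifies Notch, was 2.81-fold higher and the Notch ligand Dll1 at least 1.92-fold higher, while the call of the Notch target Nrarp (-0.76 ± 0.25) was lost when any 1 array was left out.

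**Figure D3:**
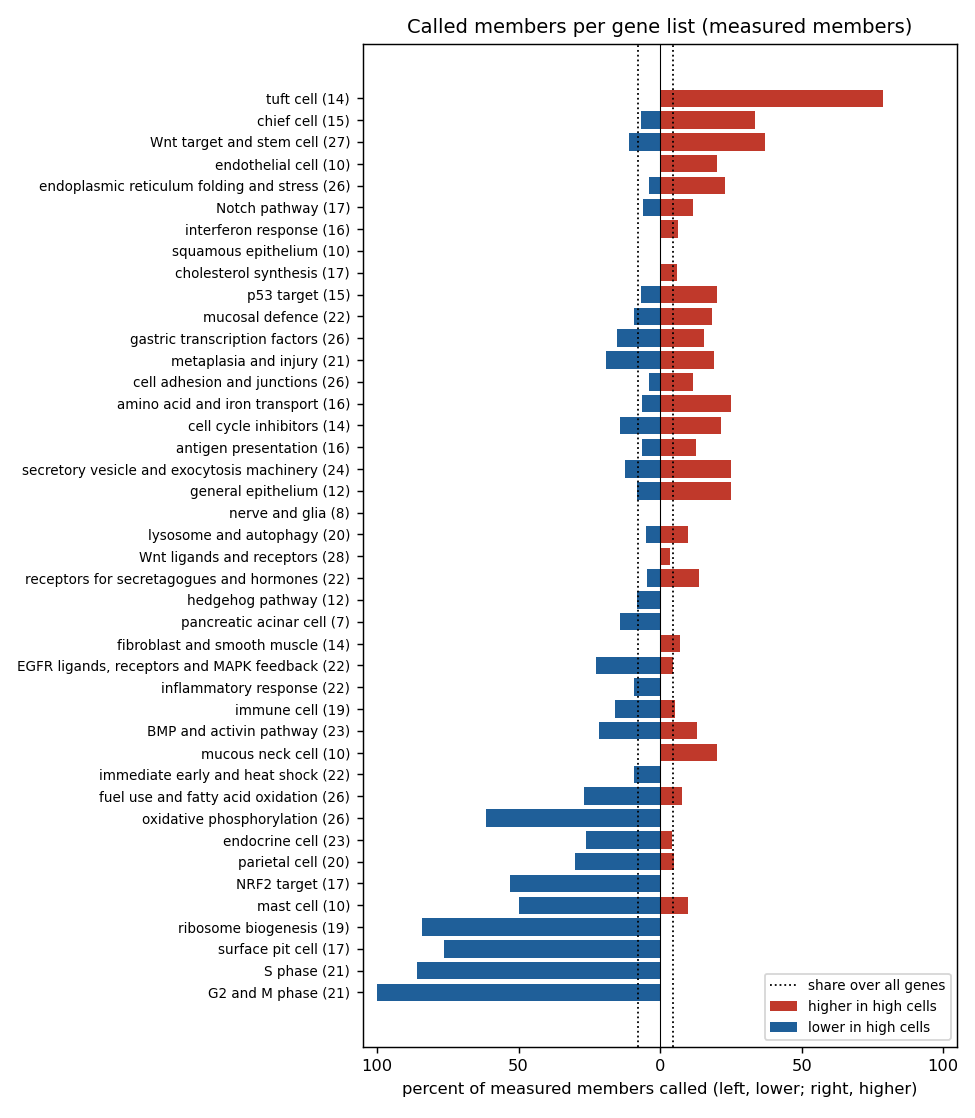
Percent of the measured members of each gene list called higher (red, to the right) or lower (blue, to the left) in high cells of control mice, with lists ordered by median difference and the number of measured members in brackets. Dotted lines are the shares over all genes, 4.64% higher and 7.66% lower. The tuft cell list stands out to the right, and the G2 and M phase list, with all 21 members called lower, to the left.

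Genes of the cell cycle were lower in high cells. All 21 measured genes of G2 and M phase were called lower, with a median of -2.94, and so were 18 of 21 genes of S phase, with a median of -1.81. At an unadjusted p under 0.05, limma gave 20 of the S phase genes lower and no gene of either list higher. Without both arrays of run 1, 12 of the G2 and M phase genes (median -2.57) and 12 of the S phase genes (median -1.60) were called lower. The mean of the G2 and M phase list was 4.49 to 5.49 in high arrays, close to the background guide, against 7.56 to 8.09 in negative arrays. Cdk1, the kinase that starts mitosis, was at 3.44, 5.19 and 5.87 in high cells, against 9.08, 8.86 and 8.78 in negative cells, 16.8-fold lower (limma, adjusted p = 0.000176). Mki67, a nuclear protein of cycling cells, was at 4.39, 5.10 and 6.28 in high and 9.22, 8.95 and 8.79 in negative cells, 13.3-fold lower. High array 1 was the lowest and high array 3 the highest in both genes, and the negative arrays lay close together.

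Top2a, the topoisomerase that untangles chromosomes, was 14.5-fold lower, and Ccna2, cyclin A2, 15.0-fold. For S phase, Prim1, a subunit of DNA primase, was 8.52-fold lower, Mcm6 of the replicative helicase 7.42-fold and Pcna, the sliding clamp, 3.36-fold. Plk1 was the 1 G2 and M phase gene whose call did not hold in 5 of the 6 fits that left out 1 array, being kept without high array 3. Of the S phase genes, Mcm2 lost its call in 5 of these fits and Cdc45 in 1. Cdkn3 and Hells, picked after their values were seen, were 17.0-fold and at least 8.23-fold lower. Cdkn1a, which encodes the cell cycle inhibitor p21, was 4.48-fold higher, at 10.55, 9.82 and 9.90 in high and 8.21, 7.55 and 8.02 in negative cells. Of 14 cell cycle inhibitors 3 were higher and 2 lower, and the number higher was 1 without high array 1 or 2 or without any 1 negative array. Gas6, among those called lower, lost its call in 4 of the 6 fits that left out 1 array.

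The promoters of 3 G2 and M phase genes called lower are shown because they carry the 2 elements known from such genes. They are thus examples picked for the elements. The sequences are the 150 bases before the start of each gene, from RefSeq (GRCm38.p6), all on the minus strand. Capitals mark the cell cycle homology region (TTTGAA, or TTCAAA on the other strand) and the CCAAT box (CCAAT, or ATTGG on the other strand), which do not overlap each other.
Cdk1 (chr10:69352913-69353062): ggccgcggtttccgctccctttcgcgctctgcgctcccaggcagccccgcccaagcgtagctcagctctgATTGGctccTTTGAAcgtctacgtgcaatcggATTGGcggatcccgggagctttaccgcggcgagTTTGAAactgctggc
Mki67 (chr7:135716380-135716529): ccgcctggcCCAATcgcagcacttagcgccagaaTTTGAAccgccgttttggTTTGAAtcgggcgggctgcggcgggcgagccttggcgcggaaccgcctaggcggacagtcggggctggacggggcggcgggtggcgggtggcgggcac
Top2a (chr11:99024190-99024339): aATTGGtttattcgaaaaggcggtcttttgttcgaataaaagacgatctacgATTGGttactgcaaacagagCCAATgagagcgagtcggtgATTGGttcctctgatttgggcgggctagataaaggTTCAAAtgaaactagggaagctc
Searched on both strands in the 250 bases before the start, TTTGAA was found in 8 of the 16 G2 and M phase genes with a promoter in the table (50%), against 18.3% of 27025 genes. CCAAT was found in 14 of 16 (87.5%), against 37.5%. Both were found in 8 of 16 (50%), against 6.45% of all genes. Ccnb2, among these 8 and also called lower, is not shown. The 150 bases before its start held 3 CCAAT boxes and no homology region. For S phase genes, TTTGAA was found in 2 of 18 (11.1%) and CCAAT in 13 of 18 (72.2%). A match is a description of the letters and not evidence of a bound site.

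Genes of ribosome biogenesis and of mitochondrial respiration were also lower. Of 19 ribosome biogenesis genes 16 were lower, with a median of -1.01. The count was 6 without high array 1, 10 without high array 2, 9 without negative array 1 and 8 without negative array 3. Nop58, a core protein of small nucleolar RNA particles, was 3.83-fold lower, with 6.80, 6.74 and 7.65 in high and 9.10, 8.80 and 9.09 in negative cells. Of 26 genes for oxidative phosphorylation 16 were lower, with a median of -0.71, and the count was 9 without high array 1 and 10 without negative array 3. Their mean was 8.44 to 8.88 in high arrays, against 9.39 to 9.56 in negative arrays, and low arrays, at 9.46 to 9.62, lay with the negative ones. Uqcrc2 of respiratory complex III was 1.96-fold lower and Cyc1, cytochrome c1, 2.13-fold.

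Surface pit cell genes were called lower in 13 of 17 measured and higher in none, with a median of -1.58. The number lower ran from 10 to 13 when any 1 array was left out, and was 9 without both arrays of run 1. Ctse, Capn9 and Pllp lost their calls in 4, 5 and 3 of the 6 fits that left out 1 array. The mean of the list was 7.40 to 7.90 in high arrays, against 9.54 to 9.67 in negative arrays. Muc5ac, the gel-forming mucin of the gastric surface, was at 5.50, 6.45 and 5.57 in high cells, against 11.001, 11.17 and 11.21 in negative cells, 39.1-fold lower (-5.29 ± 0.59, limma, adjusted p = 8.46e-06). Gkn1, a gastrokine secreted by pit cells, was at 7.73, 9.54 and 8.58 in high and 12.77, 12.68 and 12.87 in negative cells, 17.9-fold lower. Gkn2 and the trefoil peptide gene Tff1 were 18.2-fold and 10.5-fold lower. For Muc5ac and Gkn1 the negative arrays lay close together and the high arrays were more spread. At an unadjusted p under 0.05, limma gave 2 pit cell genes higher and 14 lower.

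Among the other genes called lower, Emp1, an epithelial membrane protein, was at 5.40, 4.26 and 3.75 in high cells, against 10.39, 10.47 and 10.32 in negative cells, 60.6-fold lower. Adh7, the alcohol dehydrogenase of the upper digestive tract that oxidises ethanol and retinol, was at least 31.9-fold lower, and the cytochrome P450 gene Cyp2c65 at least 12.8-fold. Il18, a cytokine stored by epithelial cells, was at least 28.6-fold lower, with 3.41, 3.72 and 4.59 in high and 8.85, 9.18 and 8.96 in negative cells. Mogat1, a monoacylglycerol acyltransferase, was 29.3-fold lower, and the sulphotransferase Sult1b1 at least 19.8-fold. Krt19, a keratin of simple epithelia, was at 4.82, 6.22 and 6.48 in high cells, against 9.56, 9.48 and 9.45 in negative cells, 12.6-fold lower, whereas Krt18 was 2.25-fold higher. Epcam, a marker of epithelial cells in general, averaged 9.76 in high and 9.27 in negative cells and was not called (adjusted p = 0.0844).

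Targets of NRF2, the transcription factor of the oxidative stress response, were called lower in 9 of 17 measured, with a median of -0.93. Pgd and Gpx2, among those called lower, lost their calls in 5 and 4 of the 6 fits that left out 1 array. At an unadjusted p under 0.05, limma gave 10 lower and none higher. Nqo1, a quinone reductase, was at 4.12, 4.29 and 5.64 in high cells, against 8.89, 8.57 and 8.82 in negative cells, 16.9-fold lower. Gsta3, a glutathione transferase, was 20.4-fold lower and the malic enzyme gene Me1 8.51-fold. For all 3 the groups did not overlap, as for 1692 of the 1698 genes called lower.

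Mucous neck cells share a boundary with chief cells in the gland. Of 10 measured neck cell genes, 2 were called higher, Gkn3 (2.00 ± 0.61) and Fut2 (0.62 ± 0.17), and Gkn3 was called only without high array 1 when 1 array was left out, while Fut2 was not called without high array 1, negative array 1 or negative array 3. Muc6, the mucin of neck cells, was at 8.69, 10.70 and 11.84 in high cells and at 11.06, 11.60 and 10.77 in negative cells. High array 1 was the lowest and high array 3 the highest of the 6, and the difference (-0.73 ± 0.68, adjusted p = 0.632) became 0.13 without high array 1.

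Parietal cell genes were called lower in 6 of 20 measured and higher in 1, with a median of -0.88. Kcne2, among those called lower, lost its call in 3 of the 6 fits that left out 1 array. With the sorting run as a replicate block, 9 were lower in the fit of 21 arrays and 12 in the fit of the 6 arrays. Both subunits of the proton pump missed the threshold. Atp4a was at 10.32, 11.38 and 10.76 in high and 10.91, 10.30 and 10.86 in negative cells, and its difference of 0.13 ± 0.48 turned negative without high array 2 (-0.15) or negative array 2 (-0.07). Atp4b differed by -1.34 ± 0.70 (adjusted p = 0.278). Esrrg, a nuclear receptor of parietal cells, was 2.83-fold lower and Ezr, the linker of membrane and actin, 3.13-fold, while Kcnq1, the potassium channel of acid secretion, was 3.40-fold higher. The list's mean was 6.66 to 6.74 in high arrays, against 7.16 to 7.55 in negative arrays. Low arrays, at 7.995 to 8.39, had the highest list means.

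Endocrine cell genes were called lower in 6 of 23 measured, 7 with the replicate block in 21 arrays and 11 in 6 arrays, and Cpe alone was higher. The median was -0.75. Ghrl, which encodes the hunger hormone ghrelin, was at 6.59, 8.10 and 7.82 in high cells, against 11.30, 11.64 and 11.60 in negative cells, 16.1-fold lower. Slc18a2, the transporter that loads histamine into vesicles of enterochromaffin-like cells, was 14.3-fold lower and Hdc, the enzyme that makes histamine, 7.79-fold. Chga, chromogranin A, was at 7.96, 7.25 and 5.85 in high and 9.94, 10.15 and 10.21 in negative cells (-3.08 ± 0.77), a call lost without high array 3. Sst, somatostatin, differed by -3.35 ± 0.81, a call lost without high array 1. Scg5, also called lower, lost its call in 5 of the 6 fits that left out 1 array. The list's mean was 5.02 to 5.37 in high arrays, against 5.82 to 6.44 in negative arrays. Low arrays, at 5.80 to 6.98, covered the range of the negative arrays. The endocrine, pit and mast cell genes called lower were 6 of 23, 13 of 17 and 5 of 10 measured, while Cpe and Kit were higher. Their part in the differences of the other genes called lower was not tested.

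Stromal and vascular markers were mostly not called. In at least 1 of the groups, 10 of 14 fibroblast and smooth muscle genes and 4 of 10 endothelial genes averaged above the background guide. Of 14 fibroblast and smooth muscle genes, Dcn was the only 1 called (at least 1.21-fold higher), and Col1a1 averaged 4.33 in high and 4.22 in negative cells. Of 10 endothelial genes, Tek, a receptor for angiopoietins, was at least 8.52-fold higher, at 8.39, 6.51 and 6.85 in high and 3.65, 3.66 and 4.47 in negative cells, and Esam was 2.66-fold higher. Pecam1 (3.97 in high and 4.08 in negative cells) and Cdh5 (3.28 and 3.60), which define the cell type, were under the background guide. No nerve, squamous or erythroid gene was called by limma among 8, 10 and 3 measured, and 1 squamous gene alone had an unadjusted p under 0.05. Of 7 pancreatic acinar genes, the lipase gene Cel was lower (-3.39 ± 0.39).

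Of 22 genes of mucosal defence 4 were higher and 2 lower, against 4.64% and 7.66% of all genes. Ltf, among those called higher, lost its call with cyclic loess and in 5 of the 6 fits that left out 1 array. Reg3g, a lectin that kills Gram-positive bacteria, was at 6.50, 7.85 and 7.46 in high cells, against 4.63, 3.42 and 4.29 in negative cells, 8.91-fold higher. Pigr, which carries IgA across the epithelium, was 3.50-fold higher. Dmbt1, a secreted scavenger receptor, was 15.3-fold lower, at 4.23, 5.39 and 5.95 in high cells and between 8.95 and 9.44 in negative cells. Of 26 genes for cell adhesion and junctions 3 were higher and 1 lower, with a median of 0.14. Cldn7 and Cldn3, claudins of tight junctions, were 9.17-fold and 5.01-fold higher, Cldn10 differed by 0.84 ± 0.22 (not called without high array 2 or negative array 3) and the gap junction gene Gja1 was at least 3.32-fold lower. Of 16 genes for amino acid and iron transport 4 were higher, with Slc7a5 at 4.20-fold and Slc38a1 at 3.25-fold, and Tfrc, the transferrin receptor, was 4.31-fold lower. Slc7a8, also called higher, lost its call in 4 of the 6 fits that left out 1 array.

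Low cells entered the fit but not the contrast of high with negative cells. Their mean lay between the high and negative means for 849 of the 1030 genes called higher (82.4%). For genes called lower it did so in 1483 of 1698 (87.3%), and over all genes in 44.2%. Called genes have a wider gap between the high and negative means, which by itself leaves more room for the low mean. On a scale from 0 at the negative mean to 1 at the high mean, the median place of low cells was 0.46 for genes called higher and 0.69 for those called lower. High minus low called 1.34% of genes and low minus negative 5.27%. Of the genes called lower, 657 were also lower in low than in negative cells and 96 were lower in high than in low cells. For those called higher the numbers were 268 and 135. These contrasts share arrays with the comparison, so the counts are a description.

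**Figure D4:**
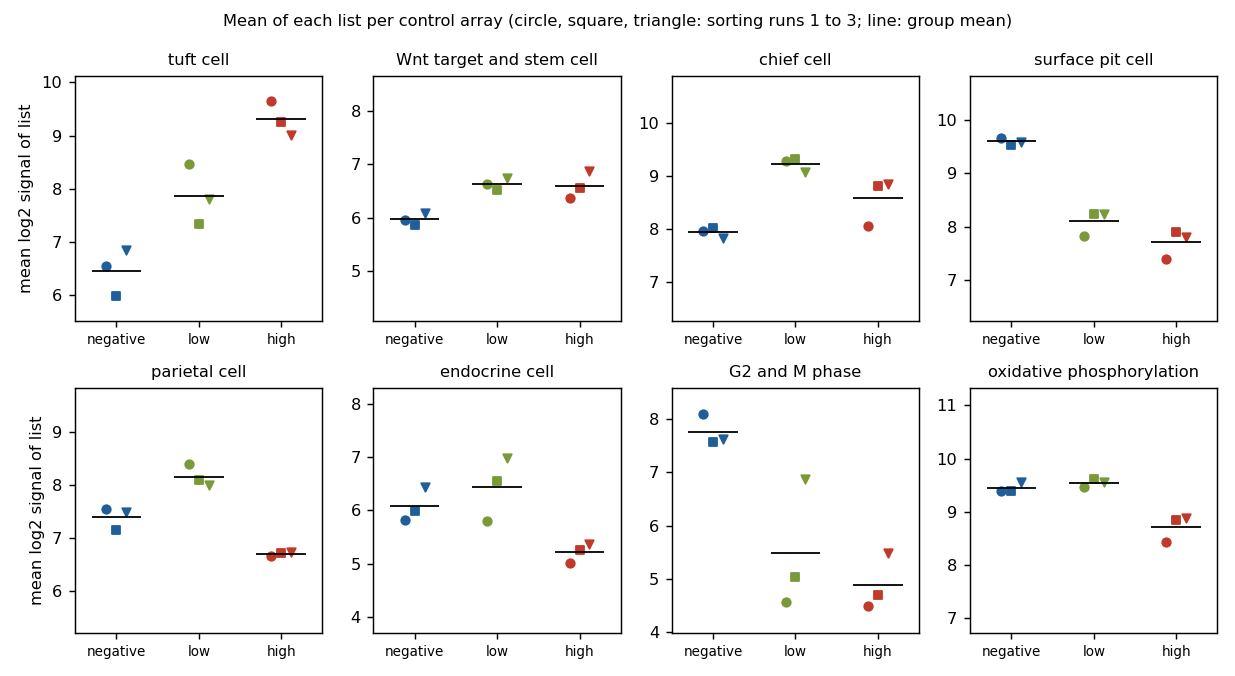
Mean level of 8 gene lists (log2 signal, vertical axis) in each control array, for negative, low and high cells. Circles, squares and triangles are sorting runs 1, 2 and 3, and lines are group means. Tuft cell genes climb over the 3 populations, pit cell genes drop in both low and high cells, parietal and chief cell genes peak in low cells, and oxidative phosphorylation genes are lower in high cells than in the other populations.

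The high and negative arrays of the tamoxifen mice share no sample with the control arrays. Both contrasts came from the same fit with a common spread per gene, which favours calls in both for genes of small spread. Of the genes called higher in control mice, 949 (92.1%) had the same sign there and 433 (42%) were called in the same direction, against 3.33% of all genes. Of those called lower, 1632 (96.1%) had the same sign and 845 (49.8%) were called, against 6.97%. The share of all genes with the same sign was 69.8%. The median difference of tuft cell genes was 3.01 in tamoxifen mice, with 10 called higher, and that of G2 and M phase genes was -2.34, with all 21 called lower. The test of the difference between the 2 treatments called 55 genes (0.248%), 12 of those called higher and 23 of those called lower in control mice.

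Some of the largest control differences were smaller in tamoxifen mice. Over all genes called higher in control mice the median was 0.61 there, against 1.19 in control mice. For those called lower it was -0.67 against -1.13. The genes were called in the control arrays, which by itself favours larger values in those arrays. Mcpt2 differed by -2.51 in tamoxifen mice, against -6.03 in control mice, and the difference between these values was called (3.52 ± 0.58, limma, adjusted p = 0.0107). With the means of high cells, under the background guide in both treatments, set to the guide, it was 3.29. Negative cells averaged 5.03 for Mcpt2 in tamoxifen and 8.32 in control mice. Dmbt1 differed by -0.17 in tamoxifen mice and -3.94 in control mice, also a called change (3.77 ± 0.70, adjusted p = 0.0231). Its mean in high cells was 10.03 in tamoxifen and 5.19 in control mice, and in negative cells 10.20 and 9.13. Cpe differed by 0.13 and Prox1, a homeobox transcription factor, by -0.80 in tamoxifen mice, against 3.39 and 2.36 in control mice. Those 2 changes missed the threshold (limma, adjusted p = 0.0528 for Cpe and 0.0811 for Prox1).

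**Figure D5:**
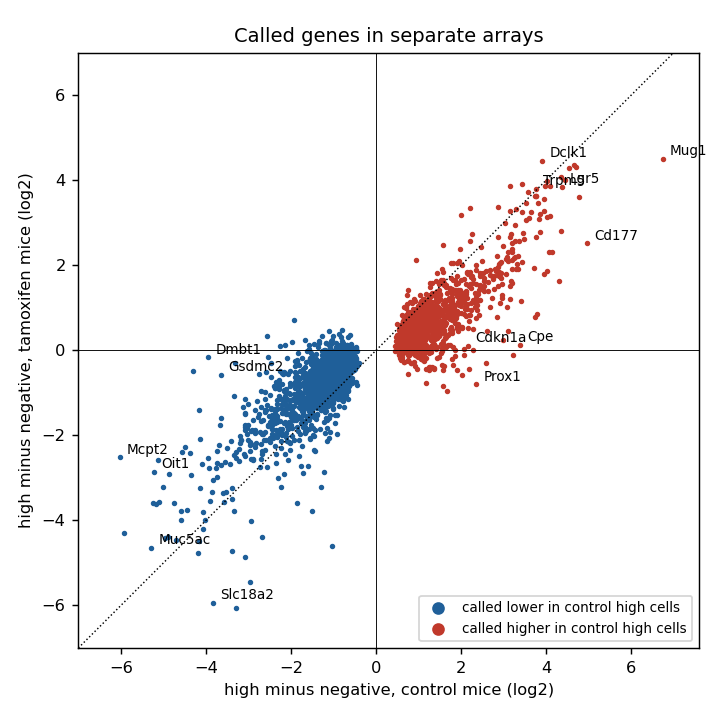
High minus negative difference in tamoxifen mice (log2, vertical axis) against that in control mice (log2, horizontal axis), for the 1030 genes called higher (red) and 1698 called lower (blue) in control high cells. The dotted line marks equal differences. Most points lie in the quadrants of equal sign, Dclk1, Trpm5 and Lgr5 lie near the line, and Dmbt1, Gsdmc2 (under the background guide in both tamoxifen groups) and Cpe lie close to 0 in tamoxifen mice.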

How the data were processed

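Biotin-labelled cDNA, amplified from column-purified RNA of sorted mouse stomach corpus cells, was hybridised to microarrays, per the labels' protocols. The deposited values are log2 signal per probe set, made by the authors with R 3.2.3, limma 3.26.8, RMA and oligo, per the submitters' processing notes, which give no roles. The genome build behind the array was not given in the sources used here.

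The platform annotation lists 25335 of the 41345 probe sets (16010 are unlisted), of which 23521 name 1 gene and 1814 name several. Symbols were updated by gene number for 23328. Each gene kept the probe set with the highest mean over 21 arrays among those naming 1 gene (1082 genes had more than 1), which left 22180 genes. Values run from 0.958 to 13.55 and array medians from 3.95 to 4.25, and no 2 arrays are identical. The number of arrays limits the precision.

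Group means were fitted with limma 3.58.1 in R 4.3.3 (lmFit and eBayes, 15 residual and 5.27 prior degrees of freedom), two-sided, with Benjamini-Hochberg adjustment over all genes. The fit was tested on simulated data. The 43 gene lists (63 of 798 genes were not measured by a probe set naming 1 gene) and the rule for named genes were chosen with earlier results of these data known. Named genes were the 12 largest called, non-overlapping differences each way, without predicted genes and receptor families, from each list the called members with the smallest adjusted p (at most 4), a fixed panel, and genes picked after their values were seen, which are marked, 170 in all. The rule also let any member of the main gland cell and Wnt target lists be given with its value, and these are not counted in the 170.

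Run numbers in the titles, with a design of individual sorting runs, pair high with negative arrays. Deviations from the group means correlated at 0.125, 0.216 and 0.116 within runs 1, 2 and 3 over the 12883 genes above background (0.0918, 0.172 and 0.107 over all genes), and at -0.149 to -0.0258 between runs. The alternatives were cyclic loess, averaged probe sets per gene, array weights, eBayes with its trend and robust options, fits of 9 or 6 arrays, a 2-fold minimum, removal of the dimmest 25 percent of genes, the run as a fixed or random block, removal of each array and, chosen after seeing the data, removal of each run.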

Additional observations from a re-analysis of the deposited data

Results flagged for a closer look

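For 9 of the 170 named genes, high minus negative differed between tamoxifen and control mice by limma's interaction term, with adjusted p from 0.000704 to 0.0466. Differences are tamoxifen minus control. They were 3.52 for the mast cell protease Mcpt2, 1.93 for the mast cell carboxypeptidase Cpa3, 2.37 for Oit1, 1.97 for Mogat1, 3.77 for Dmbt1, 3.08 for the gasdermin gene Gsdmc2, 1.50 for the lactate dehydrogenase gene Ldhb, -1.64 for the transcription factor gene Ptf1a and -1.49 for the amino acid transporter gene Slc38a5. Gsdmc2 was picked after its value was seen. Some group means behind these values lay under the background guide of 4.16, 3 of 4 for Cpa3 and Gsdmc2 and 2 of 4 for Mcpt2 and Ptf1a. With such means set to the guide the differences, which have no test, were 1.60 for Cpa3, 1.59 for Gsdmc2, 3.29 for Mcpt2 and -1.95 for Ptf1a.

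In 18 groups of 4 tamoxifen arrays, 2 held a sample far from the other 3, where chance gives about 1 in 20. Mcpt2 was at 3.11 in 1 tamoxifen high array and Gsdmc2 at 3.81 in 1 tamoxifen negative array. All 4 arrays of both these groups lay under the background guide, so the gaps are within background.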

How the results depend on the processing

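Of the 160 called named genes that entered all 20 settings tried, 116 kept their call in each. Gsdmc2, left out with the dimmest genes, kept its call in the other settings. With the main settings 1030 genes were higher and 1698 lower. Array weights gave 2018 higher and 2792 lower, and a minimum of 2-fold gave 658 and 1042. Leaving out 1 array gave 706 to 961 higher and 1116 to 1603 lower. Leaving out both arrays of run 1 gave 511 and 696, of run 2 550 and 971, and of run 3 712 and 1122, with fewer samples in each fit. With the replicate block the counts were 1167 higher and 1950 lower in 21 arrays and 1405 and 2238 in 6 arrays, and the 21-array block ended the calls of Copz2 (adjusted p = 0.0545) and Uqcrfs1 (adjusted p = 0.0677) among all called list members and named genes, neither of them among the 160. The 6-array block ended those of Pga5, Adcyap1r1, Uqcrfs1, Tap2, Fosb and Gpx2. Under the remaining settings both counts stayed within 1.5 times the main ones. Muc6 (-0.73) ran from -1.45 without high array 3 to 0.13 without high array 1 when 1 array was left out, and was 0.089 without run 1. Atp4a (0.13) ran from -0.15 without high array 2 to 0.38 without high array 1, and was -0.07 without negative array 2 and -0.35 without run 2. The cause was not tested. A minimum of 2-fold left 5 oxidative phosphorylation and 10 ribosome biogenesis genes called lower, against 16 in each list. Cyclic loess moved the median of all genes to 0.01, against 0.04. Genes near a level of 4.16, the background guide, have only bounds on their fold.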

Other observations

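Gastrin, encoded by Gast and made by G cells of the gastric antrum, differed more between sorting runs than between populations. It was at 5.50, 10.43 and 12.04 in high cells of runs 1, 2 and 3, against 4.87, 5.46 and 11.24 in negative cells. Low cells had 5.07, 10.28 and 12.54. Tamoxifen arrays ranged from 5.15 to 12.66 in high cells and from 5.45 to 12.04 in negative cells.

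Of 26 gastric transcription factors 4 were higher and 4 lower. Foxa3 (higher), Gata6 (lower) and Klf4 (lower) lost their calls in 3, 2 and 1 of the 6 fits that left out 1 array. Prox1 was 5.13-fold higher, at 7.55, 6.30 and 6.38 in high cells, against 4.28, 4.26 and 4.60 in negative cells, and Xbp1, a driver of the secretory programme, differed by 0.80 ± 0.19. Ptf1a, a factor of pancreatic acinar cells, was at least 1.43-fold lower. Of 26 genes for fuel use 2 were higher (1 when any 1 array was left out) and 7 lower (4 without high array 2), with Acadl, an enzyme of fatty acid oxidation, 2.91-fold lower and Pfkp, a phosphofructokinase, 2.13-fold higher. Of 21 genes for metaplasia and injury 4 were higher and 4 lower (7 lower with the replicate block in 6 arrays). Nupr1, a stress-induced chromatin protein, was 3.45-fold higher, Anxa3 at least 11.04-fold lower and Sprr1a, a cornified envelope protein, 4.19-fold lower. Fos and Fosb were the immediate early and heat shock genes called, both lower (-1.90 ± 0.35 and -1.29 ± 0.34, the call of Fosb lost in 2 of the fits that left out 1 array and with the replicate block in 6 arrays). Of 15 p53 targets 3 were higher and 1 lower, and the number higher was 1 without high array 1 or any 1 negative array. Tnfrsf10b, the target called lower, lost its call in 4 of the 6 fits that left out 1 array. In the inflammatory list Tlr4, a receptor for bacterial lipopolysaccharide, was 3.54-fold lower beside Il18. Single genes were called in the lists for interferon response (Stat2, 1.32 ± 0.42), cholesterol synthesis (Fdft1, 0.71 ± 0.21) and hedgehog signalling (Shh, -1.46 ± 0.34), each with a call lost when some 1 array was left out. Of 16 genes for antigen presentation 2 were higher and 1 lower. Tapbp was 2.27-fold higher, while the calls of Tap2 (0.86 ± 0.26) and H2-Ab1 (-1.82 ± 0.59) were each lost without high array 1 or 2 or negative array 1 or 3, that of H2-Ab1 also without high array 3 and that of Tap2 also with the replicate block in 6 arrays. Of 20 genes for lysosomes and autophagy 2 were higher and 1 lower. Ctsa was 2.39-fold higher, while the call of Ulk1 (0.96 ± 0.29) was lost without any 1 array other than negative array 1, and that of Ctsh (-1.14 ± 0.32) without high array 1 or 2 or negative array 1 or 3.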
